A study of Mus musculus with 6 samples.

Results

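The 10 genes described here encode enzymes that make NADPH in the liver cell or carry sugar phosphates through the pentose phosphate pathway. They were chosen by name (G6pdx, Pgls, Pgd, Rpia, Rpe, Tkt, Taldo1, Me1, Idh1 and H6pd) from the 56350 gene IDs of the count table, and all 10 were found and had enough counts to be tested. The series compared liver RNA of mice labelled Atg14 HepKO (HepKO from here on) with liver RNA of mice labelled wild-type (WT), with 3 libraries in each group. ATG14 directs the class III phosphatidylinositol 3-kinase to the sites where autophagosomes form. Polyadenylated RNA was sequenced from libraries made with a stranded kit, and the authors deposited raw read counts per gene. The sources used here give neither the allele and Cre driver nor strain, age, sex or diet, and they do not say whether each library is a different animal. The p-values therefore measure the spread between these samples, which may be technical except where the counts show a different animal (HepKO replicate 1, below).

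NADPH is the electron donor for fatty acid and sterol synthesis and for the reductases that keep glutathione and thioredoxin reduced. In the cytosol it comes from the oxidative branch of the pentose phosphate pathway (G6pdx, Pgls, Pgd), from malic enzyme (Me1) and from isocitrate dehydrogenase (Idh1), while H6pd makes a separate pool inside the endoplasmic reticulum. The non-oxidative branch (Rpia, Rpe, Tkt, Taldo1) interconverts pentose phosphates and glycolytic sugars without making NADPH.

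Total counts were 33145684 to 48951937 in HepKO libraries and 35720011 to 41754560 in WT libraries. Atg14 had 5.66, 8.44 and 7.95 CPM (counts relative to the scaled total of the library) in HepKO replicates 1 to 3, against 20.9, 22.2 and 21 CPM in WT replicates 1 to 3, with no overlap (log2 fold change -1.54 ± 0.16, adjusted p = 0.000469). Log2 fold changes are HepKO over WT with their SE, from edgeR's quasi-likelihood test with Benjamini-Hochberg adjustment over 16051 genes, and a gene was called at an adjusted p under 0.05. The totals behind CPM were multiplied by TMM factors (trimmed mean of M-values), which were 1.1873 to 1.2048 in HepKO and 0.8245 to 0.8603 in WT. Without these factors, on plain library totals, the median log2 fold change of all genes was 0.52 in place of 0.01, so members are given on both scalings. Relative to the median of all genes, the fold change of each member was the same on both scalings to within 0.01.

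A pair of libraries stood apart from their groups. HepKO replicate 1 had 30377 counts of Xist, the RNA of the inactive X chromosome, against 15 and 22 in the other HepKO libraries and 2 to 7 in WT, and 3 counts of the Y-linked gene Ddx3y, against 2596 and 3281 in the other HepKO libraries and 2696 to 3482 in WT. These counts are those of a female for HepKO replicate 1 and of males for every other library. HepKO replicate 1 is thus a different animal from the others, and sex was mixed in HepKO only. WT replicate 3 was low in several genes of sugar and fat metabolism, including 4 of the 10 members by over 0.5 on the log2 scale. Results are therefore also given without these libraries. Markers of other cells moved with the genotype as well: 8 of 8 macrophage markers were called higher (summed level 505 to 905 CPM in HepKO, 186 to 367 CPM in WT), as were 5 of 5 genes of dividing cells (55.9 to 102 CPM in HepKO, 3.85 to 8.13 CPM in WT), 3 of 8 stellate markers (507 to 579 CPM in HepKO, 217 to 314 CPM in WT) and 4 of 6 cholangiocyte markers (148 to 561 CPM in HepKO, 43.9 to 61.8 CPM in WT), while 8 of 8 hepatocyte markers were lower (43567 to 53511 CPM in HepKO, 99862 to 123446 CPM in WT). Lymphoid and neutrophil markers summed to 5.59 to 15.9 CPM in HepKO and 2.69 to 4.93 CPM in WT, with 2 of 8 called higher, and endothelial markers to 147 to 187 CPM in HepKO and 128 to 160 CPM in WT, with 1 of 6 called higher. Erythroid genes summed to 101 to 132 CPM in HepKO and 188 to 273 CPM in WT, with 3 of 5 called lower. Without WT replicate 3, 5 macrophage, 2 cholangiocyte and 1 lymphoid or neutrophil markers were called higher, with 0 endothelial markers higher and 1 erythroid gene lower. Without HepKO replicate 1, 6 macrophage markers were called higher, and without both libraries 4, while 5 cycling and 3 stellate markers were higher and 7 hepatocyte markers lower in each case. The summed cholangiocyte level was 148, 561 and 220 CPM in HepKO replicates 1 to 3. Without HepKO replicate 2, Epcam and Cftr of that list were not called (adjusted p = 0.191 and 0.135). These calls are under TMM. On library totals 6 hepatocyte markers and 1 erythroid gene were called lower. There 8 macrophage, 5 cycling, 6 stellate, 4 cholangiocyte, 4 endothelial and 3 lymphoid or neutrophil markers were called higher. No marker of these lists was at 0 in every library. In bulk tissue, fewer cells of a type and less RNA per cell cannot be told apart, and the part of these markers in the results for the members was not tested.

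The members differed in direction. Pgd and Rpia rose in HepKO livers, Me1 and Idh1 fell, and the other 6 were not called under TMM. G6pdx was near the threshold, with every HepKO library above every WT library. Of all genes tested, 19.5% were called higher and 18.7% lower, so the 2 members called in each direction are close to the share of all genes. The median log2 fold change was -0.06 over the 10 members and 0.01 over all genes. The groups did not overlap for 7 members, with HepKO higher for 4 (G6pdx, Pgd, Taldo1 and Rpia) and lower for 3 (Me1, Idh1 and H6pd), where 53.5% of all genes did not overlap. On library totals 6 members were called higher and 1 lower, where 46.3% of all genes were called higher and 5.85% lower, and the median was 0.45 over the members and 0.52 over all genes.

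**Figure D1:**
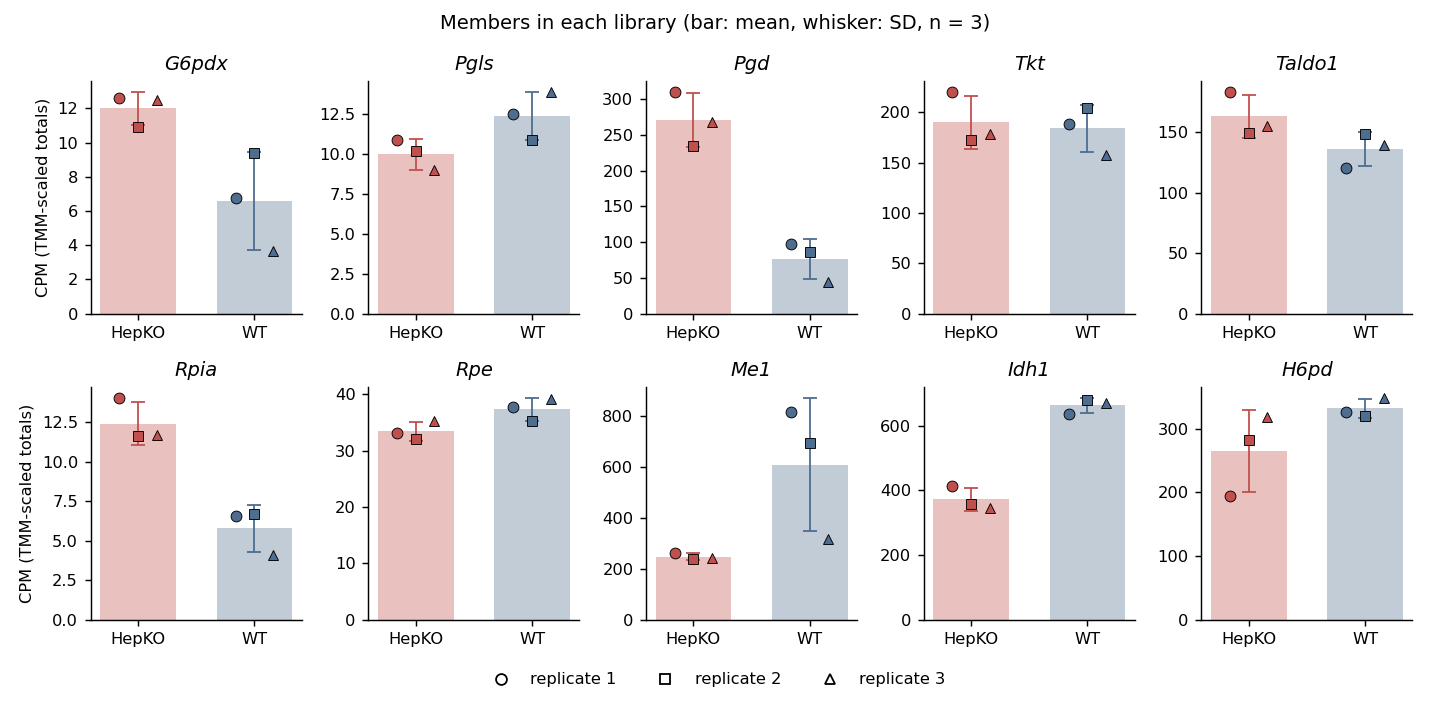
CPM of the 10 members on TMM-scaled totals (vertical axes starting at 0, each with its own range) in HepKO and WT, with 1 symbol per library, bars for the mean and whiskers for the SD over 3 libraries. Pgd was 234 to 310 CPM in HepKO and 44.7 to 97.5 CPM in WT, and WT replicate 3 (triangle) was the lowest WT library for G6pdx, Pgd, Tkt, Rpia and Me1.

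The oxidative branch did not move as a unit. Pgd, which encodes the 6-phosphogluconate dehydrogenase that makes the branch's second NADPH and releases ribulose 5-phosphate, had 310, 234 and 268 CPM in HepKO replicates 1 to 3, against 97.5, 86.5 and 44.7 CPM in WT replicates 1 to 3. Every HepKO library was above every WT library, and the lowest HepKO value exceeded the highest WT value by a wide margin. Pgd averaged 271 ± 37.7 CPM in HepKO and 76.2 ± 27.8 CPM in WT (SD, n = 3 each), a 3.55-fold rise (log2 fold change 1.83 ± 0.27, 95% interval 1.20 to 2.46, adjusted p = 0.00171). On library totals the log2 fold change was 2.33 (adjusted p = 0.000497).

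G6pdx encodes the enzyme of the first and rate-limiting step. Its levels were 12.6, 10.9 and 12.5 CPM in HepKO replicates 1 to 3, against 6.75, 9.38 and 3.66 CPM in WT replicates 1 to 3. The HepKO libraries lay close together and above all WT libraries, while the WT libraries spread widely (coefficient of variation 7.89% in HepKO and 43.4% in WT). The means were 12 ± 0.948 CPM in HepKO and 6.6 ± 2.87 CPM in WT (log2 fold change 0.86 ± 0.30, 95% interval 0.17 to 1.56), which did not pass the threshold (adjusted p = 0.054). On library totals G6pdx was called (log2 fold change 1.36, adjusted p = 0.00804), and it was called in 7 of 15 alternatives in all. The log2 fold change was 1.24 without WT replicate 2 (adjusted p = 0.0125) and 0.59 without WT replicate 3 (adjusted p = 0.071). G6pdx is X-linked, and HepKO replicate 1, the library with Xist, was 0.10 above the mean of the other HepKO libraries on the log2 scale. Without it the log2 fold change was 0.82 (adjusted p = 0.112).

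Pgls, the lactonase between these dehydrogenases, had 10.9, 10.2 and 9.01 CPM in HepKO replicates 1 to 3, against 12.5, 10.9 and 13.9 CPM in WT replicates 1 to 3. The groups met at 10.9 CPM, and the difference was not called (log2 fold change -0.31 ± 0.14, 95% interval -0.64 to 0.03, adjusted p = 0.134). On library totals its sign was positive (log2 fold change 0.21, adjusted p = 0.248). G6pdx (chrX:74409483-74429194, minus strand) overlaps Ikbkg on the other strand, and Pgls (chr8:71592176-71601092, plus strand) overlaps Fam129c on the same strand in the GENCODE annotation, so reads of the shared stretches may have been counted differently. Pgd (chr4:149149991-149166771, minus strand) overlaps no annotated gene.

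Windows around annotated starts of G6pdx, Pgd and Me1 are shown because a window of each gene holds the letters TGACNNNGC. These letters are the core of the antioxidant response element to which NRF2 (Nfe2l2) binds, and these genes differed in direction. The windows run from 250 bases before to 50 bases after each start in RefSeq GRCm38.p6, in lower case with the match in capitals. On the G6pdx window (chrX:74428831-74429130, minus strand) the match lies at position -57 from the start and reads on the opposite strand. The first Me1 window (chr9:86695865-86696164, minus strand) has its match at position -6 on the gene's strand. Of the Pgd windows, the first (chr4:149166656-149166955, minus strand) has no match. The second (chr4:149166033-149166332, minus strand), that of an alternative start, has a match at position 3, which is after the start and not upstream of it. The second Pgd window lies inside the gene. The bases just before its start, a run of t and then gtcatttcag, are of the kind that ends an intron. The bases after it hold an open reading frame that runs through the match. The match may thus be coding sequence at the edge of an internal exon and not part of a promoter. Whether this start is used in liver was not tested.
G6pdx: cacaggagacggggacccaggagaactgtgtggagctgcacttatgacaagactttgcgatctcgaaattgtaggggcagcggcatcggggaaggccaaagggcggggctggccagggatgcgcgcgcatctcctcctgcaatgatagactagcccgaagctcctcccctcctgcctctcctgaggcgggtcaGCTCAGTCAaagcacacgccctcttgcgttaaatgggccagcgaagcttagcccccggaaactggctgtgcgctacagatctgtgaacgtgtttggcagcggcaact
Pgd, first start: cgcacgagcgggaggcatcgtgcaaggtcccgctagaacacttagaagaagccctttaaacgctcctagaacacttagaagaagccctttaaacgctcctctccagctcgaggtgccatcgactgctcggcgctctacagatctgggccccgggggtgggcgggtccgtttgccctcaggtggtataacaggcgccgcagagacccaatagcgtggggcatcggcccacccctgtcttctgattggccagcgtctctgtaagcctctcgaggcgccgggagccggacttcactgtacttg
Pgd, second start: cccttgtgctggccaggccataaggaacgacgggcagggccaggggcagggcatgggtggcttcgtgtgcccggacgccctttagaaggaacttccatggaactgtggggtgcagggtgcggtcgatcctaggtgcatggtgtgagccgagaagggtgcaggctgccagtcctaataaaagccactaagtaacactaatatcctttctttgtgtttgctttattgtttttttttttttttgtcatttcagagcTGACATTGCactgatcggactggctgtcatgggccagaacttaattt
Me1, first start: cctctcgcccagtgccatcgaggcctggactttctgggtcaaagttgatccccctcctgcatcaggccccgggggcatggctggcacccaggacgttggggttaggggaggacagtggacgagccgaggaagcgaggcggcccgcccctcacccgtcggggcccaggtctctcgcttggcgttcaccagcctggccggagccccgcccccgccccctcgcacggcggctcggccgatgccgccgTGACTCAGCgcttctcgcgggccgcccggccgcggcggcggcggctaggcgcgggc
The 10 members had 13 windows in all, of which 3, each of a different member, held TGACNNNGC on either strand, where 12.4% of 32851 windows of all genes did. The E-box CACGTG was found in 0 of the 13 windows and in 7.15% of all windows. A match says only that these letters are present, and no match says only that these letters are not in the window. The 3 genes with a match were Pgd (after its alternative start only, in what may be coding sequence), which rose, G6pdx, which was not called under TMM, and Me1, which fell.

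In the non-oxidative branch, Rpia rose while the other 3 enzymes were not called under TMM. Rpia, which turns ribulose 5-phosphate into ribose 5-phosphate for nucleotide synthesis, had 14, 11.6 and 11.7 CPM in HepKO replicates 1 to 3, against 6.58, 6.68 and 4.07 CPM in WT replicates 1 to 3. The groups did not overlap, and WT replicate 3 was again the lowest. Rpia averaged 12.4 ± 1.38 CPM in HepKO and 5.78 ± 1.48 CPM in WT (SD, n = 3 each), a 2.15-fold rise (log2 fold change 1.11 ± 0.21, 95% interval 0.61 to 1.60, adjusted p = 0.00534). On library totals the log2 fold change was 1.61 (adjusted p = 0.000816).

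Rpe, the epimerase that takes the other route from ribulose 5-phosphate, did not share this rise. It had 33.1, 32 and 35.2 CPM in HepKO replicates 1 to 3, against 37.7, 35.2 and 39.1 CPM in WT replicates 1 to 3. The groups met at 35.2 CPM (log2 fold change -0.16 ± 0.09, 95% interval -0.37 to 0.05, adjusted p = 0.211). On library totals the sign turned and Rpe was called higher (log2 fold change 0.35, adjusted p = 0.0111), below the median of all genes on that scaling.

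Tkt, the transketolase that moves 2-carbon units, had 220, 172 and 178 CPM in HepKO replicates 1 to 3, against 188, 204 and 158 CPM in WT replicates 1 to 3. The groups overlapped, with a log2 fold change of 0.05 ± 0.14 (95% interval -0.27 to 0.37, adjusted p = 0.819). Taldo1, the transaldolase, had 183, 149 and 155 CPM in HepKO replicates 1 to 3, against 120, 148 and 139 CPM in WT replicates 1 to 3. Its lowest HepKO library was just above its highest WT library, and the difference was not called (log2 fold change 0.26 ± 0.12, 95% interval -0.02 to 0.54, adjusted p = 0.127). On library totals Tkt (log2 fold change 0.55, adjusted p = 0.0137) and Taldo1 (log2 fold change 0.77, adjusted p = 0.00175) were called higher, against a median of 0.52 over all genes.

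The cytosolic NADPH sources outside the pathway fell. Me1, the malic enzyme that makes pyruvate and NADPH from malate, had 263, 238 and 244 CPM in HepKO replicates 1 to 3, against 816, 693 and 316 CPM in WT replicates 1 to 3. The HepKO libraries were nearly equal and all lower than WT, but WT replicate 3 was much closer to them than to the other WT libraries. Me1 averaged 248 ± 13 CPM in HepKO and 609 ± 261 CPM in WT (SD, n = 3 each), 2.45-fold lower in HepKO (log2 fold change -1.29 ± 0.30, 95% interval -2.00 to -0.59, adjusted p = 0.0121). Without WT replicate 3 the log2 fold change was -1.58 (adjusted p = 0.000672). On library totals the groups overlapped and the call ended (log2 fold change -0.79, adjusted p = 0.0615). Me1 (chr9:86581371-86695953, minus strand) overlaps Gm38230 on the same strand and the antisense transcript A330041J22Rik. The strand setting of the counting is not given in the sources used here.

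Idh1, the cytosolic and peroxisomal isocitrate dehydrogenase, was lower in HepKO on both scalings. It had 413, 358 and 347 CPM in HepKO replicates 1 to 3, against 638, 681 and 671 CPM in WT replicates 1 to 3. Every HepKO library was far below every WT library, and WT replicate 3 was level with the other WT libraries (a difference of 0.03 on the log2 scale). Idh1 averaged 373 ± 35.1 CPM in HepKO and 663 ± 22.2 CPM in WT (SD, n = 3 each), 1.78-fold lower in HepKO (log2 fold change -0.83 ± 0.11, 95% interval -1.09 to -0.57, adjusted p = 0.0011). On library totals the fall was smaller and still called (log2 fold change -0.32, adjusted p = 0.04).

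H6pd, which couples both oxidative steps inside the endoplasmic reticulum, had 194, 283 and 318 CPM in HepKO replicates 1 to 3, against 327, 320 and 348 CPM in WT replicates 1 to 3. All HepKO libraries were below WT, but the highest HepKO value almost reached the lowest WT value and HepKO replicate 1 stood far below the rest. The means were 265 ± 64 CPM in HepKO and 332 ± 14.6 CPM in WT, and H6pd was not called (log2 fold change -0.33 ± 0.18, 95% interval -0.73 to 0.08, adjusted p = 0.181) nor in any alternative. On library totals its log2 fold change was 0.19 (adjusted p = 0.4). HepKO replicate 1 differed from the mean of the other HepKO libraries by -0.63 on the log2 scale, and without it the log2 fold change was -0.15 (adjusted p = 0.295).

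**Figure D2:**
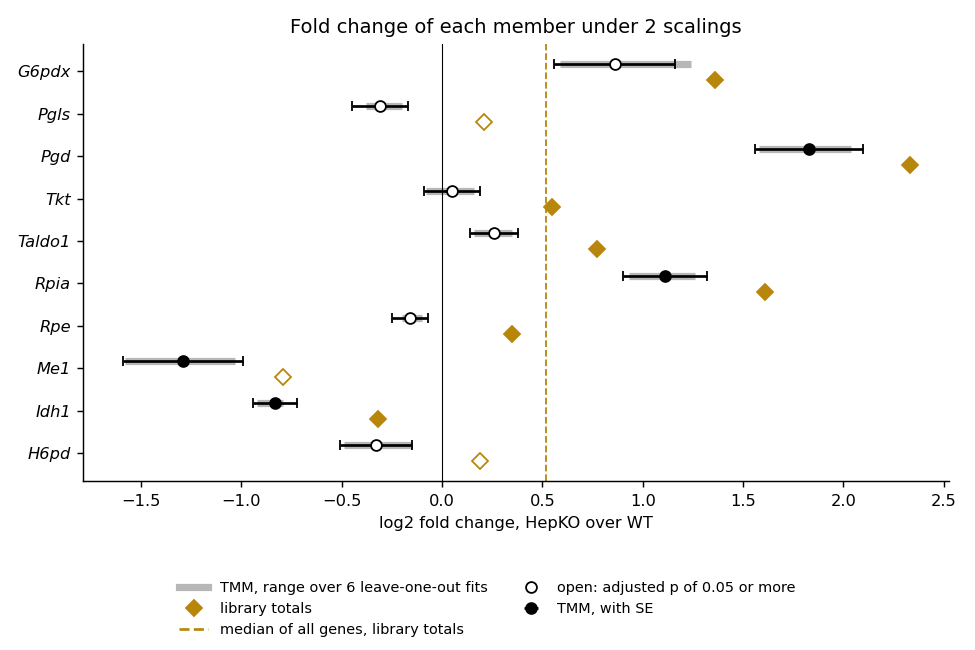
Log2 fold change (HepKO over WT, horizontal axis) of each member. Circles with SE whiskers are values under TMM, grey bars the range over the 6 fits that each left out 1 library, diamonds the values on library totals, filled symbols an adjusted p under 0.05, and the dashed line the median of all genes on library totals (0.52). Pgd (1.83 and 2.33) and Rpia (1.11 and 1.61) lay right of zero on both scalings, and Me1 (-1.29 and -0.79) and Idh1 (-0.83 and -0.32) left of it.

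The order of the members changed between the groups. Per kilobase of exon, Idh1 was highest in both, at 135 ± 12.7 CPM per kb in HepKO and 239 ± 8.03 CPM per kb in WT. Taldo1 came next in HepKO (74.9 ± 8.29), then Me1 (64.5 ± 3.37), H6pd (50.6 ± 12.2), Pgd (42 ± 5.84), Tkt (25.8 ± 3.59), Rpe (10.7 ± 0.523), G6pdx (3.9 ± 0.308), Pgls (2.66 ± 0.258) and Rpia (2.32 ± 0.258 CPM per kb). In that order the neighbours H6pd and Pgd overlapped between libraries, as did Pgls and Rpia. In WT, Me1 followed Idh1 (158 ± 67.7), then H6pd (63.4 ± 2.78), Taldo1 (62.5 ± 6.51), Tkt (25 ± 3.18), Rpe (12 ± 0.639), Pgd (11.8 ± 4.32), Pgls (3.3 ± 0.396), G6pdx (2.14 ± 0.93) and Rpia (1.08 ± 0.277 CPM per kb). There H6pd overlapped Taldo1, Rpe overlapped Pgd, and G6pdx overlapped both Pgls and Rpia. Pgd thus stood above Tkt in HepKO and below it in WT. The length is the union of all annotated exons of a gene (for example 6447 bases for Pgd), which can exceed that of the transcripts in liver, so levels between genes are approximate.

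Ratios of counts within a library do not depend on the scaling. The 3 ratios were compared with a 2-sided exact permutation test over 3 against 3 libraries, which cannot go below p = 0.1. G6pdx counts were 6.5%, 3.86% and 3.93% of H6pd counts in HepKO replicates 1 to 3, against 2.07%, 2.93% and 1.05% in WT replicates 1 to 3. The cytosolic enzyme was higher relative to its endoplasmic reticulum counterpart in every HepKO library, by 1.32 on the log2 scale or 2.5-fold (exact p = 0.1, the smallest possible, 0.3 adjusted over 3 ratios). Without HepKO replicate 1 this difference was 1.07, and without WT replicate 3 it was 0.91.

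Me1 counts were 63.6%, 66.4% and 70.2% of Idh1 counts in HepKO replicates 1 to 3, against 128%, 102% and 47.2% in WT replicates 1 to 3. The HepKO libraries fell between WT replicate 3 and the other WT libraries, and the mean log2 ratio differed by -0.35 (exact p = 0.4, 0.4 adjusted). Without WT replicate 3 it differed by -0.78, with no overlap, and without WT replicate 1 by -0.06. Tkt counts were 120%, 115% and 114% of Taldo1 counts in HepKO replicates 1 to 3, against 157%, 138% and 114% in WT replicates 1 to 3. The log2 ratio differed by -0.22 (exact p = 0.4, 0.4 adjusted), with WT replicate 3 at the level of the HepKO libraries, and by -0.34 without that library and -0.11 without WT replicate 1.

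**Figure D3:**
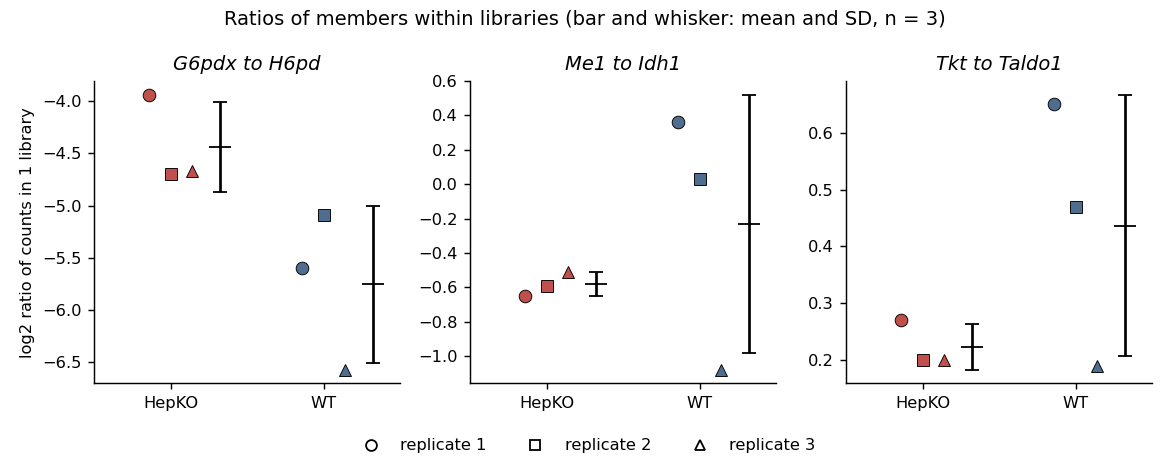
Log2 ratio of the counts of a pair of members in the same library (vertical axes, each with its own range), with 1 symbol per library and a bar and whisker for the mean and SD of 3 libraries. For G6pdx to H6pd all HepKO libraries (-4.70 to -3.94) were above all WT libraries (-6.57 to -5.09). WT replicate 3 lay apart from WT replicates 1 and 2 for Me1 to Idh1 (-1.08, against 0.36 and 0.03). For Tkt to Taldo1 the WT replicates 1 to 3 were spread more evenly (0.65, 0.47 and 0.19).

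WT replicate 3 was the lowest WT library for 5 members. Against the log2 of the mean of WT replicates 1 and 2 it differed by -1.25 for Me1, -1.14 for G6pdx, -1.04 for Pgd, -0.71 for Rpia and -0.31 for Tkt, while the other 5 members differed by 0.03 to 0.24. Genes chosen after their values were seen showed the same library low, with -3.84 for Sqle and -1.95 for Fasn, which use NADPH in sterol and fatty acid synthesis and -1.78 for Acly, which makes the acetyl-CoA for both. Srebf1, the sterol and fatty acid synthesis regulator, did not share the pattern (-0.02). For Fasn the HepKO libraries lay between WT replicate 3 and the other WT libraries, with 325 to 405 CPM in HepKO and 796, 936 and 224 CPM in WT replicates 1 to 3. Leaving out both HepKO replicate 1 and WT replicate 3, Pgd, Rpia, Me1 and Idh1 were called again, with a log2 fold change of 1.44 for Pgd (adjusted p = 0.000768), 0.80 for Rpia (adjusted p = 0.0196), -1.65 for Me1 (adjusted p = 0.000612) and -0.91 for Idh1 (adjusted p = 0.0018), and 0.53 for G6pdx without a call (adjusted p = 0.128).

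**Figure D4:**
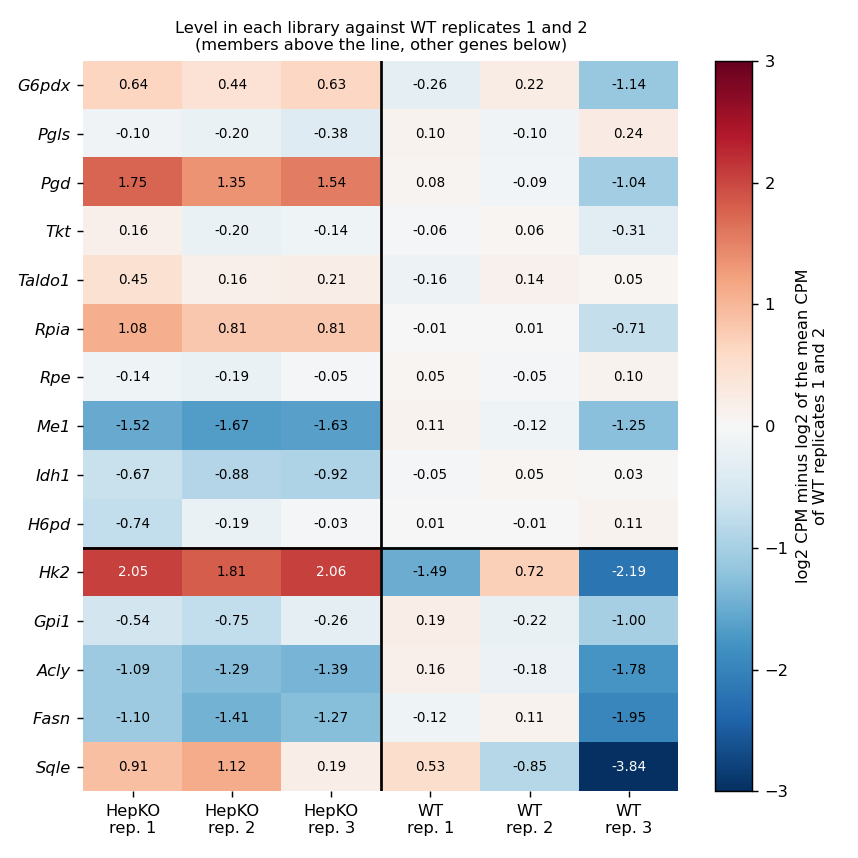
Level of each member (above the horizontal line) and of 5 other genes (below it) in each library, as log2 CPM minus the log2 of the mean CPM of WT replicates 1 and 2, which is printed in each cell and shown by colour. WT replicate 3 was low for Me1 (-1.25), G6pdx (-1.14), Pgd (-1.04) and Rpia (-0.71), while Pgd was high (1.35 to 1.75) and Me1 low (-1.67 to -1.52) in all HepKO libraries.

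Among the 5 genes most like G6pdx across the 6 libraries, by Pearson correlation of log2 CPM among 9338 protein-coding genes, were Stard9 (0.998), Vps26c (0.986), Fhod1 (0.979) and Gimap9 (0.978). All 4 had their lowest level in WT replicate 3, and the 6 libraries share the group difference, so this likeness is only a description. Stard9, for example, had 10.7, 9.78 and 10.3 CPM in HepKO replicates 1 to 3, against 7.66, 8.8 and 5.65 CPM in WT replicates 1 to 3.

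Genes that feed or drain the pentose phosphates went both ways. Of 13 tested, 5 rose and 3 fell (median log2 fold change 0.13, and 0.64 with 8 higher and 3 lower on library totals). Without WT replicate 1 or HepKO replicate 3, or without both libraries that stood apart, 3 in place of 5 were called higher, and Hk2 was no longer called (adjusted p = 0.0511 to 0.0586). Of the hexokinases, Hk2 and Hk3 were low in WT and rose. Hk3 averaged 10.9 ± 2.17 CPM in HepKO and 2.78 ± 1.27 CPM in WT (log2 fold change 1.96 ± 0.33, adjusted p = 0.00288), and Hk2 averaged 17.9 ± 1.7 CPM in HepKO and 3.36 ± 3.57 CPM in WT (log2 fold change 2.40 ± 0.63, adjusted p = 0.0191, and 3.81 without WT replicate 2, its highest WT library). Hk3 is known from blood cells and macrophages. The 8 macrophage markers and 2 of 8 lymphoid and neutrophil markers were called higher too, or 4 and 0 without both libraries that stood apart. Their part in the rise of Hk3 was not tested.

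Shpk, which makes sedoheptulose 7-phosphate, and Dera, which splits deoxyribose 5-phosphate, fell. Shpk averaged 36.4 ± 4.03 CPM in HepKO and 71.1 ± 3.37 CPM in WT (log2 fold change -0.96 ± 0.11, adjusted p = 0.000529), and Dera 58 ± 5.63 CPM in HepKO and 105 ± 6.98 CPM in WT (log2 fold change -0.86 ± 0.11, adjusted p = 0.000827). Both falls were also called on library totals, with log2 fold changes of -0.45 and -0.35. Tigar, a phosphatase known to divert sugar into the pathway, was not called (log2 fold change 0.13 ± 0.14, adjusted p = 0.518).

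Most genes around H6pd in the endoplasmic reticulum fell. Of 4 tested, 3 fell and 0 rose on either scaling (median log2 fold change -1.62, and -1.11 on library totals). Slc37a4, which brings glucose 6-phosphate into the lumen, averaged 50.6 ± 2.26 CPM in HepKO and 176 ± 7.54 CPM in WT (log2 fold change -1.80 ± 0.09, adjusted p = 6.17e-05). Hsd11b1, the cortisone reductase that uses the NADPH made by H6pd, averaged 216 ± 57.7 CPM in HepKO and 589 ± 32.3 CPM in WT (log2 fold change -1.45 ± 0.19, adjusted p = 0.000974). G6pc, the catalytic subunit of glucose 6-phosphatase, averaged 68.4 ± 29.8 CPM in HepKO and 415 ± 86.8 CPM in WT (log2 fold change -2.60 ± 0.34, adjusted p = 0.00107). The groups of these 3 genes did not overlap. The difference between their fold changes and that of H6pd was not tested.

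Around Me1 and Idh1, 10 of 13 tested genes of citrate, malate and pyruvate exchange fell and 0 rose (median log2 fold change -0.64). Without WT replicate 2, HepKO replicate 2 or HepKO replicate 3, 6 were called lower. On library totals 2 were called lower, and the median was -0.12 against 0.52 over all genes. Those 2 were Got1, the cytosolic aspartate aminotransferase (97.3 ± 14.9 CPM in HepKO and 311 ± 51.3 CPM in WT, log2 fold change -1.68 ± 0.16, adjusted p = 0.000332), and Pcx, the mitochondrial pyruvate carboxylase (317 ± 29.5 CPM in HepKO and 714 ± 33.2 CPM in WT, log2 fold change -1.17 ± 0.11, adjusted p = 0.000333). Aco1, the cytosolic aconitase that makes the substrate of Idh1, averaged 172 ± 7.12 CPM in HepKO and 300 ± 41.9 CPM in WT (log2 fold change -0.81 ± 0.12, adjusted p = 0.00179), without a call on library totals (adjusted p = 0.0664).

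Of 11 NAD kinases and other dehydrogenases tested, not all of which make NADPH, 2 rose and 3 fell (median -0.08, and 0.43 with 4 higher and 1 lower on library totals). Without WT replicate 2, WT replicate 3 or HepKO replicate 3, 1 in place of 3 was called lower. Folate enzymes went both ways. The cytosolic Mthfd1 averaged 132 ± 13 CPM in HepKO and 269 ± 22.5 CPM in WT (log2 fold change -1.02 ± 0.11, adjusted p = 0.000545), while the mitochondrial Mthfd2 averaged 5.17 ± 0.376 CPM in HepKO and 1.51 ± 0.426 CPM in WT (log2 fold change 1.78 ± 0.27, adjusted p = 0.00178). Me2, a mitochondrial malic enzyme, rose to 4.85 ± 0.17 CPM in HepKO, against 1.94 ± 0.262 CPM in WT (log2 fold change 1.32 ± 0.22, adjusted p = 0.00266), far below the level of Me1. Mthfd2 and Me2 are known to use mainly NAD, so their rises are not read as a rise in NADPH supply. Nadk, the cytosolic NAD kinase that makes NADP, was not called (log2 fold change -0.08 ± 0.11, adjusted p = 0.585).

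The enzymes that spend NADPH went both ways. Of 14 tested, 5 rose and 3 fell (median 0.22, and 0.72 with 5 higher and 1 lower on library totals). Txnrd1, the cytosolic thioredoxin reductase, averaged 433 ± 56.2 CPM in HepKO and 144 ± 9.56 CPM in WT (log2 fold change 1.59 ± 0.13, adjusted p = 0.000159). Gsr, the glutathione reductase, averaged 237 ± 39.7 CPM in HepKO and 82.1 ± 3.49 CPM in WT (log2 fold change 1.53 ± 0.13, adjusted p = 0.000218). Nqo1, a quinone reductase, had 188, 75.4 and 88.8 CPM in HepKO replicates 1 to 3, against 11, 17.1 and 9.21 CPM in WT replicates 1 to 3 (log2 fold change 3.24 ± 0.39, adjusted p = 0.000774). Blvrb and Pycr1 rose too, while Por, which passes electrons to cytochromes P450, and Akr7a5, an aldehyde reductase, were among those that fell. On library totals Por was still called (log2 fold change -1.03, adjusted p = 0.0251) and Akr7a5 was not (log2 fold change -0.09, adjusted p = 0.453). Pycr1 had few counts (at most 42 in a library, 0.692 CPM in HepKO and 0.0668 CPM in WT). It was not called without both libraries that stood apart (adjusted p = 0.0572). Fasn was not called (363 ± 40.3 CPM in HepKO and 652 ± 377 CPM in WT, log2 fold change -0.84 ± 0.44, adjusted p = 0.167), nor were the sterol enzymes Sqle and Dhcr7.

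Of 11 transcription factors and partners known to act on these genes, 3 rose and 4 fell (median 0.07, and 0.58 with 7 higher and 2 lower on library totals). Nfe2l2 averaged 110 ± 6.35 CPM in HepKO and 84.9 ± 12.1 CPM in WT (log2 fold change 0.38 ± 0.12, adjusted p = 0.0393), but its call ended when any library other than WT replicate 2 was left out (adjusted p = 0.0674 to 0.135). Its partner Mafk averaged 28.3 ± 1.49 CPM in HepKO and 13.7 ± 2.71 CPM in WT (log2 fold change 1.05 ± 0.15, adjusted p = 0.00142). Another partner, Mafg, fell (log2 fold change -0.70 ± 0.13, adjusted p = 0.00475), without a call on library totals (adjusted p = 0.249). Trp53, which encodes the stress-activated transcription factor p53, averaged 25.4 ± 1.79 CPM in HepKO and 14.1 ± 0.732 CPM in WT (log2 fold change 0.84 ± 0.10, adjusted p = 0.000842). Srebf1, which is known to drive lipogenic genes including Me1 and G6pdx, averaged 114 ± 23.5 CPM in HepKO and 288 ± 17.9 CPM in WT (log2 fold change -1.33 ± 0.16, adjusted p = 0.000652). Thrb, the thyroid hormone receptor of hepatocytes, for which Me1 is a classical target, averaged 31.4 ± 3.09 CPM in HepKO and 56.6 ± 4.9 CPM in WT (log2 fold change -0.85 ± 0.11, adjusted p = 0.00106). These are mRNA levels, and neither protein, enzyme activity nor NADPH was measured.

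**Figure D5:**
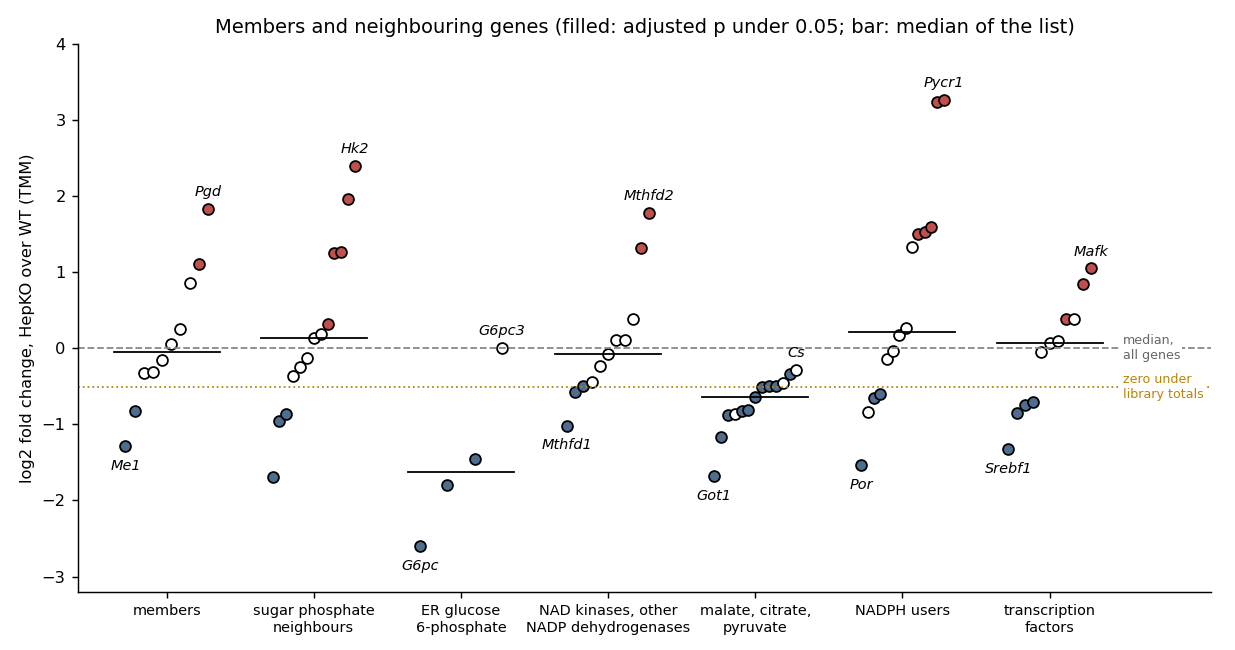
Log2 fold change under TMM (HepKO over WT, vertical axis) of the members and of the tested genes of 6 related lists, 1 circle per gene sorted within its list, filled at an adjusted p under 0.05 (red higher, blue lower), with a black bar for the list median. The dashed line is the median of all genes (0.01) and the dotted line the value that is zero on library totals. Members, sugar phosphate genes and NADPH users spread in both directions, while no gene of the malate, citrate and pyruvate list was called higher.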

How the data were processed

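Liver RNA of 3 HepKO and 3 WT libraries was measured. The authors deposited unnormalised counts of reads per gene. The submitters' processing notes list the mm10 build, STAR 2.7.11a, featureCounts, Subread 2.0.0, edgeR 3.40.2 and bcl2fastq. Annotation release, strand setting and order of steps were not given in the sources used here, so overlapping genes may share reads. Besides the members named above, Rpe overlaps Kansl1l on the other strand and Tkt overlaps the microRNA gene Mir3076 on the same strand. Of 56350 gene IDs, 55480 matched GENCODE mouse release M21 (GRCm38, the assembly of mm10). The other 870 had no symbol and took no more than 0.00572% of the counts of any library.

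Counts were filtered with filterByExpr, which kept 16051 genes, scaled with TMM and tested 2-sided, without covariates, by quasi-likelihood F tests (edgeR 4.0.16, R 4.3.3). The SE of a log2 fold change was taken as its absolute value divided by the root of the F statistic. Errors are the SE of log2 fold changes, and for CPM the SD over 3 libraries. No library repeated another of its group, since their counts differed beyond sampling error (chi-square over its degrees of freedom at least 26.6).

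The members, the related lists and the cell markers were chosen with earlier results of these data known. The text names all members, Atg14, the 3 genes of each related list with the smallest p and the 5 genes most like G6pdx (mean of at least 5 CPM). Some items these rules take are not reported here. Other genes named were chosen after their values were seen. Alternatives were DESeq2 1.42.0, limma-voom (limma 3.58.1), median-of-ratios factors, library totals, TMM without the 20 most abundant genes, filtering at 1 CPM in 3 libraries, no filter, leaving out each library, a replicate block, an adjusted p under 0.01 and a minimum absolute log2 fold change of 1. Leaving out both libraries that stood apart was chosen after seeing the data. Several genes of the lists had almost no counts in any library (Pgm1 at most 14 and Txnrd2 at most 5), which was not read as absence.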

Additional observations from a re-analysis of the deposited data

How the results depend on the processing

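The members had 125 counts or more in every library, and whether depth or the number of libraries limited the calls was not tested. On library totals 6 members were called higher and 1 lower, in place of 2 and 2, and the sign turned for Rpe (log2 fold change 0.35, called) and for Pgls (0.21) and H6pd (0.19), not called on either scaling. That of Tkt, not called, turned without WT replicate 3 (-0.03), without HepKO replicate 1 (-0.08) and without both (-0.18). That scaling raised the median of all genes to 0.52. At an adjusted p under 0.01, 1 member was called lower, as was 1 with a minimum absolute log2 fold change of 1. Over the 15 other fits, thresholds aside, 134 member fold changes kept direction and side of the threshold, 9 gained a call, 1 lost it (Me1, library totals) and 6 turned. Leaving out 1 library gave 2 members called higher, or 3 without WT replicate 2, and 2 called lower each time. Over those 6 fits the log2 fold change was 1.58 to 2.04 for Pgd, 0.93 to 1.26 for Rpia, 0.59 to 1.24 for G6pdx, -0.08 to 0.16 for Tkt, -1.58 to -1.03 for Me1 and -0.92 to -0.79 for Idh1. The ratio differences were 0.91 to 1.65 for G6pdx to H6pd, -0.78 to -0.06 for Me1 to Idh1 and -0.34 to -0.11 for Tkt to Taldo1. Deviations of libraries with the same number had correlations of -0.139, -0.109 and 0.03, within the range of the other pairs (-0.157 to 0.218). Over 3 libraries in each group this cannot tell whether the numbers pair the samples. With a replicate block, 2 members were called higher and 2 lower, and exact sign-flip tests of the ratios gave p = 0.25, 0.5 and 0.5. Of the related lists, 179 counts of calls stayed within 1.5 times and 25 did not.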

Other observations

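Several genes next to the members that the naming rule left out also passed the test. Hk1, a widely expressed hexokinase, averaged 5.94 ± 0.716 CPM in HepKO and 2.49 ± 0.624 CPM in WT (log2 fold change 1.25 ± 0.25, adjusted p = 0.00579). Pgm2, a phosphopentomutase, averaged 9.36 ± 1.09 CPM in HepKO and 3.87 ± 0.88 CPM in WT (log2 fold change 1.27 ± 0.21, adjusted p = 0.00291). Prps2, which turns ribose 5-phosphate into the precursor of nucleotides, rose less, with 28.9 ± 1.69 CPM in HepKO and 23.2 ± 1.24 CPM in WT (log2 fold change 0.32 ± 0.10, adjusted p = 0.0347, and no call in 5 of the 6 fits without 1 library), and its paralog Prps1 was not called (29.8 ± 3.59 CPM in HepKO and 32.6 ± 0.157 CPM in WT, adjusted p = 0.381). The cycling markers, whose summed level was higher in every HepKO library, moved with these rises, and their part in them was not tested.

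In mitochondria, Glud1, the glutamate dehydrogenase, averaged 915 ± 97.5 CPM in HepKO and 1297 ± 117 CPM in WT (log2 fold change -0.50 ± 0.13, adjusted p = 0.0178), and Nadk2, the mitochondrial NAD kinase, 9.83 ± 2.03 CPM in HepKO and 14.6 ± 0.175 CPM in WT (log2 fold change -0.57 ± 0.17, adjusted p = 0.0287). Without WT replicate 3 neither was called (adjusted p = 0.0665 and 0.0838). Nor were they on library totals, where their log2 fold changes were 0.01 and -0.06. Idh2, the mitochondrial counterpart of Idh1, was not called (119 ± 34.2 CPM in HepKO and 110 ± 16.9 CPM in WT, log2 fold change 0.11 ± 0.20, adjusted p = 0.704). Mlxipl, the glucose-responsive regulator ChREBP, averaged 119 ± 11 CPM in HepKO and 201 ± 15 CPM in WT (log2 fold change -0.75 ± 0.11, adjusted p = 0.00157), without a call on library totals (adjusted p = 0.0889).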
